A study of Mus musculus with 2 samples.

Results

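The small leucine-rich proteoglycans are a family of secreted matrix proteins, and 10 genes of the family were examined in RNA from the mouse vagina: *Dcn*, *Bgn*, *Lum*, *Fmod*, *Prelp*, *Ogn*, *Omd*, *Aspn*, *Kera* and *Podn*. They were found by gene symbol, as every probe set annotated to exactly 1 of these genes, which gave 21 of the 45101 probe sets on each array. Of the 10 genes, 9 had a probe set that reached a signal of 100 on 1 array or both and counted as measured, of 11934 genes measured in all.

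The arrays came from female C57/Bl6 mice of 2 genotypes, wild type (WT) and *Fbln5*-/-, which lack fibulin-5, a protein needed to assemble elastic fibers. Both groups were labelled as 6 months old, and all animals were ovariectomized and then given estradiol at 50 µg/kg/d for 3 d, so that neither group shows the cycling state. The study cites earlier work in which most *Fbln5*-/- females had pelvic organ prolapse before this age. Prolapse was not among the labels used, so genotype and prolapse cannot be told apart here. The sample labels give 11 d for ovariectomy, the series description gives 2 weeks, and the methods place estradiol 2 weeks after ovariectomy. What the 11 d are counted from is not settled. There was 1 Affymetrix expression array per genotype. The methods give 2 animals for each group, and whether their RNA was pooled on the array is not stated. No difference therefore has a replicate check, and no p-value or error between animals can be given. In the study the arrays served to look for serine protease inhibitors in the vaginal wall.

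Small leucine-rich proteoglycans sit on collagen fibrils in connective tissue. Each has a core of leucine-rich repeats, and several members bind collagen and keep fibrils from fusing side to side. Many carry a glycosaminoglycan chain, chondroitin or dermatan sulfate on decorin and biglycan and keratan sulfate on lumican and fibromodulin. In soft tissues such as the vaginal wall they are made mainly by stromal fibroblasts, and decorin and biglycan also bind transforming growth factor-β. Classes are told apart by sequence, with *Dcn*, *Bgn* and *Aspn* in class I, *Lum*, *Fmod*, *Prelp*, *Kera* and *Omd* in class II and *Ogn* in class III.

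The values are MAS5 signal intensities that were scaled to a common median, and ratios are *Fbln5*-/- over WT at the brightest probe set of a gene unless another is named. Array number limits the precision of each ratio. At the *Fbln5* probe set that passed the limit of 100, the signals were 410.4 for WT and 30.4 for *Fbln5*-/-, in the direction of the labels. The arrays differed in their 5′ and middle control probe sets. The 5′ control probe set of *Gapdh* was 21.7-fold lower on the *Fbln5*-/- array (log2 ratio −4.44) while its 3′ probe set had a log2 ratio of 0.05, and for *Actb* the values were −1.87 and −0.18. The middle probe sets had log2 ratios of −1.16 for *Gapdh* and −1.22 for *Actb*. The positions of the proteoglycan probe sets within their transcripts were not analysed here. Signals of vaginal epithelium were present on both arrays, with *Krt13* at 19999 and 21197 and *Trp63* at 6103 and 7115, although other *Trp63* probe sets had log2 ratios from −4.47 to 0.63.

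At their brightest probe sets, all 9 measured genes had a higher signal on the *Fbln5*-/- array than on the WT array, where 63.6% of all measured genes did. *Prelp*, *Fmod* and *Aspn* passed 2-fold, and 0 genes were 2-fold lower. The place of *Fmod* rests on its probe set: at the probe set with the highest WT signal, or without _x_at, _s_at and _a_at probe sets, its log2 ratio was −0.082 and the count was 2, and with quantile normalization, where *Omd* passed as well, the count was 4. The shares among all measured genes were 7.21% for 2-fold higher and 4.77% for 2-fold lower. The 9 genes were at 100 or more on both arrays. Their brightest probe sets were picked on the mean of both arrays, so the choice also used the *Fbln5*-/- signal. With signals under 100 set to 100 the count was 3 (5.80% of all genes). A 2-fold lower signal was then closed to *Omd*, *Aspn*, *Fmod* and *Podn*, with WT signals from 119.4 to 150.8. At 1.5-fold, 6 of the 9 genes were higher, against 20.0% of all genes. The median log2 ratio of the 9 genes was 0.74, with a range from 0.26 to 2.61, and that of all 11934 genes was 0.16 with quartiles of −0.17 and 0.50. In RNA from whole tissue, more cells that make a transcript and more transcript per cell cannot be told apart.

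**Figure D1:**
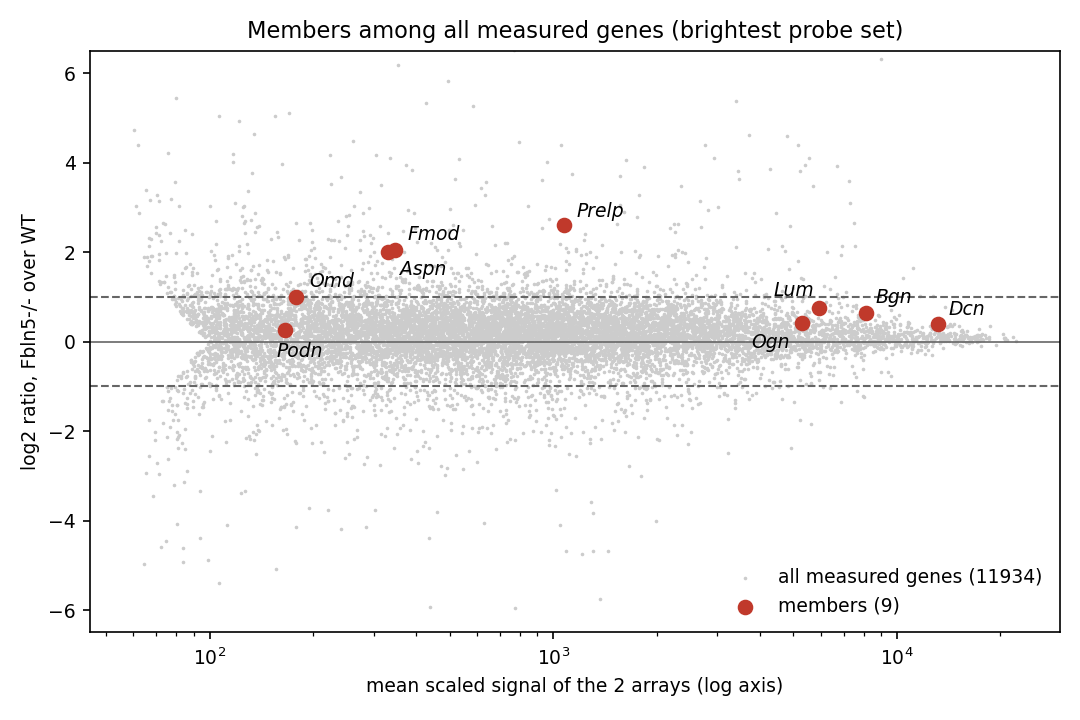
Log2 ratio (*Fbln5*-/- over WT, 1 array each) against mean scaled signal (log axis) for all 11934 measured genes (grey, of which 5 lie outside the plotted ratios) and the 9 measured proteoglycan genes (red), with dashed lines at a 2-fold difference. All 9 lie above 0 at their brightest probe sets, with *Prelp* (2.61), *Fmod* (2.04, but −0.082 at another probe set) and *Aspn* (1.99) past 2-fold and *Omd* (0.996) at the line.

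*Prelp* encodes a class II protein with an arginine- and proline-rich amino terminus that binds heparan sulfate, and it is thought to anchor basement membranes to the collagen beneath. Its signal was 303.5 in WT and 1847 in *Fbln5*-/- tissue, 6.09-fold higher, and its ratio had rank 113 among the 11934 genes. The probe set behind this ratio carries the _s_at suffix, and leaving out _x_at, _s_at and _a_at probe sets gives a log2 ratio of 1.69. A second probe set had signals of 81.2 and 261.2, so it was at least 2.61-fold higher, with the WT signal taken as 100. The log2 ratios as measured were 2.61 and 1.69. The second probe set passed the limit of 100 through the *Fbln5*-/- array only, so a higher signal was the only direction open to it.

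*Aspn* encodes asporin, a class I protein with a run of aspartates near its amino terminus and no glycosaminoglycan chain. Its signal was 132.4 for WT and 526.6 for *Fbln5*-/-, a 3.98-fold difference. At its other probe set, which carries the _s_at suffix, the signals were 80.2 and 387.6, at least 3.88-fold higher. The log2 ratios were 1.99 and 2.27, or 1.95 at the second with its WT signal taken as 100. The second probe set passed the limit through the *Fbln5*-/- array only, so a higher signal was the only direction open to it. Of the WT signals, 1 was just above the limit of 100 and the other under it.

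*Fmod* encodes fibromodulin, a class II protein that binds collagen fibrils and helps direct lysyl oxidase to them. It was the gene whose probe sets differed most. The brightest stood at 135.5 in WT and 555.5 in *Fbln5*-/- tissue, a 4.10-fold difference. The next had signals of 175.6 and 166.0, a log2 ratio of −0.082, and it was the 1 proteoglycan probe set of the 19 past the limit with a lower signal on the *Fbln5*-/- array. Of the remaining probe sets, 3 were under 100 for WT and above it for *Fbln5*-/-, so a higher signal was the only direction open to them. Their signals were 79.9 and 214.5, 72.6 and 194.6, and 88.1 and 149.3. The last probe set was under 100 on both arrays, with signals of 32.6 and 43.7. The probe set with the log2 ratio of −0.082 carries the plain _at suffix, and the 5 others are _x_at probe sets, a suffix that marks probes shared with other sequences. The 2-fold difference of *Fmod* therefore rests on the choice of probe set, and taking the probe set with the highest WT signal, or leaving out _x_at, _s_at and _a_at probe sets, gives −0.082 in place of 2.04.

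*Omd* encodes osteomodulin, a class II protein best known from bone and dentin. Its single probe set stood at 119.4 in WT and 238.2 in *Fbln5*-/- tissue, a log2 ratio of 0.996 that was just short of 2-fold (1.99-fold), and quantile normalization took it to 1.005. *Podn*, which encodes podocan, had the smallest difference, with signals of 150.8 and 180.3 (1.20-fold). *Aspn*, *Fmod*, *Omd* and *Podn* all had mean signals under 400, a range in which 10.8% of 4005 genes were at least 2-fold higher, and of these 4 genes 2 were, *Aspn* and *Fmod* (1 with *Fmod* at −0.082). *Kera*, which encodes keratocan of the corneal stroma, had signals of 12.1 and 16.9, both under 100, and no fold is given.

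**Figure D2:**
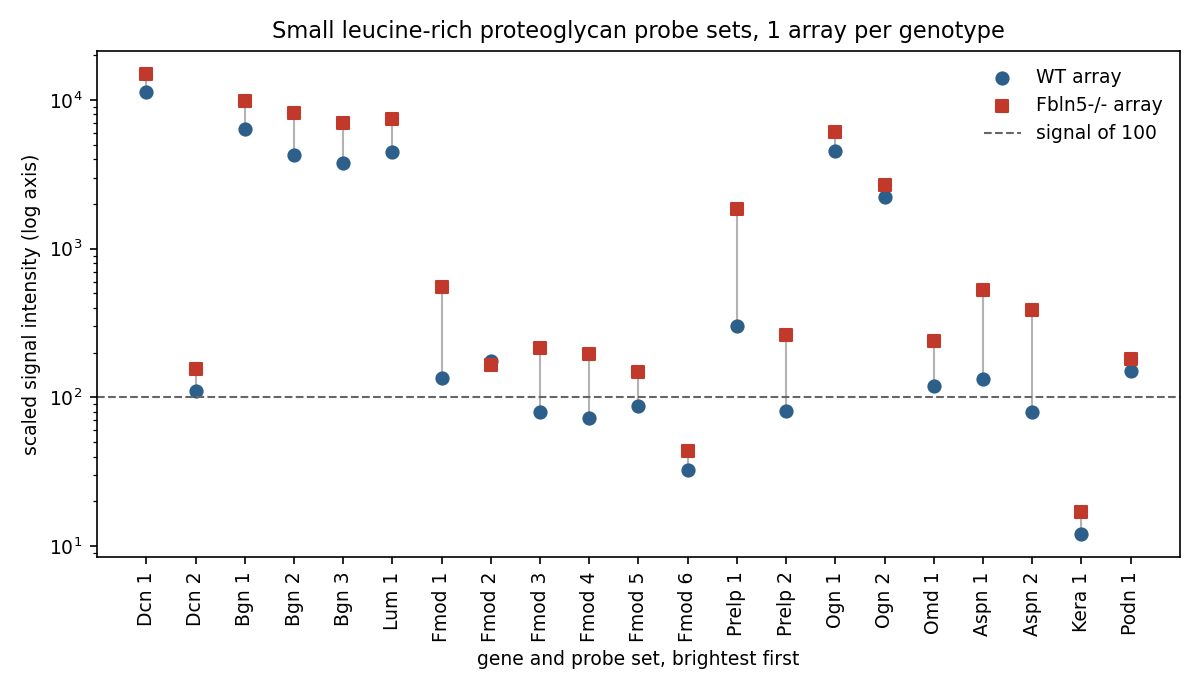
Scaled signal (log axis) of the 21 proteoglycan probe sets with WT as circles and *Fbln5*-/- as squares, 1 array per genotype, numbered within a gene from the brightest and with a dashed line at 100. *Prelp* and *Aspn* are higher on the *Fbln5*-/- array at both probe sets, the second of each being under 100 on the WT array. The second *Fmod* probe set (175.6 and 166.0) is not higher, and *Kera* lies under 100 on both arrays.

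The abundant members showed smaller differences. *Dcn* encodes decorin, which coats collagen fibrils and limits their width. Its brightest probe set stood at 11371 in WT and 15028 in *Fbln5*-/- tissue, 1.32-fold higher. A second *Dcn* probe set, far dimmer, had signals of 110.2 and 155.2 (1.41-fold). *Bgn* encodes biglycan, the closest relative of decorin, which is also released from matrix as a ligand of Toll-like receptors. Its signals were 6342 and 9872 at the brightest probe set, 1.56-fold higher, and the other *Bgn* probe sets were 1.91-fold and 1.87-fold higher, so that all 3 stood between 1.5-fold and 2-fold. *Lum* encodes lumican, a regulator of fibril spacing, and its single probe set had signals of 4455 and 7439 (1.67-fold). *Ogn* encodes osteoglycin, also called mimecan. Its signals were 4513 and 6058 (1.34-fold), and 2223 and 2695 at its other probe set (1.21-fold). No probe set of these 4 genes was lower on the *Fbln5*-/- array.

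Bright genes spread less between the arrays than dim genes. Among 908 genes with a mean signal of 5000 or more, a limit chosen after the values were seen, the quartiles of the log2 ratio were −0.03 and 0.27, with a median of 0.09, and 7.27% were at least 1.5-fold higher. *Dcn*, *Bgn*, *Lum* and *Ogn* all belonged to this class, and *Bgn* and *Lum* passed 1.5-fold. The share of these bright genes with a larger ratio was 4.85% for *Lum*, 6.39% for *Bgn*, 13.0% for *Ogn* and 14.1% for *Dcn*. All 4 lay above the upper quartile of their class. The order of the ratios was *Lum*, *Bgn*, *Ogn* and *Dcn*, and probe sets of 1 gene differed too much to rank neighbours, since the *Bgn* probe sets ranged from 0.64 to 0.94 on both sides of the *Lum* value of 0.74.

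Over probe sets, 19 of the 21 were past the limit of 100. Of the 19, 5 passed through the *Fbln5*-/- array only and 0 through the WT array only. A higher signal was the only direction open to those 5. Of the 19, 7 were at least 2-fold higher and 0 at least 2-fold lower, while over all 19627 named probe sets 6.29% were at least 2-fold higher and 8.65% lower. Where both signals reached 100, which held for 14 probe sets, 3 were at least 2-fold higher, 1 each for *Prelp*, *Fmod* and *Aspn*, against 4.45% of 17199 named probe sets under the same condition. Probe sets of 1 gene share a transcript and are not replicates. Among probe sets with neither signal under 100, the log2 ratios of *Dcn*, *Bgn* and *Ogn* varied with a pooled SD of 0.13 within a gene, and adding *Fmod* raised it to 0.68. Over the 4114 genes with several such probe sets it was 0.52.

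Most members lie beside each other in the genome. In the gene order of GRCm38.p6, with protein-coding genes counted and predicted genes left out, *Prelp* and *Fmod* are neighbours, next to *Optc*, which encodes opticin. *Aspn*, *Omd* and *Ogn* follow each other after *Ecm2*, and *Dcn*, *Lum* and *Kera* are followed by *Epyc*. *Bgn* and *Podn* stand alone. At their brightest probe sets the adjacent *Prelp* and *Fmod* had log2 ratios of 2.61 and 2.04 (−0.082 for *Fmod* at another probe set), and along *Aspn*, *Omd* and *Ogn* the log2 ratio went from 1.99 through 0.996 to 0.42. *Epyc* encodes epiphycan, a class III relative known from cartilage. Its signal was 100.8 for WT and 498.7 for *Fbln5*-/-, 4.95-fold higher at a single probe set, and was thus more than that of *Dcn* or *Lum* beside it. *Optc* (52.5 and 48.7) and *Ecm2* (30.05 and 27.1) were under 100 on both arrays.

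The genes of other families on either side were read as a background for these clusters. Of 27 such genes, the 3 nearest on each side of a member or cluster with the relatives left out, 19 were measured. Their median log2 ratio was −0.03, 2 were at least 2-fold higher and 0 were 2-fold lower. The higher ones were *Btg2*, an antiproliferative gene that follows *Fmod* (644.8 and 1409, 2.19-fold), and *Chil1*, a chitinase-like gene whose signals of 11.3 and 119.0 give at least 1.19-fold. Beside *Aspn*, *Omd* and *Ogn*, the 5 measured genes *Ippk*, *Cenpp*, *Nol8*, *Iars* and *Fbxw17* had log2 ratios from −0.46 to 0.15. Beside *Dcn*, *Btg1* had a log2 ratio of 0.37 and *Eea1* of 0.65, close to those of *Dcn* and *Lum*.

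**Figure D3:**
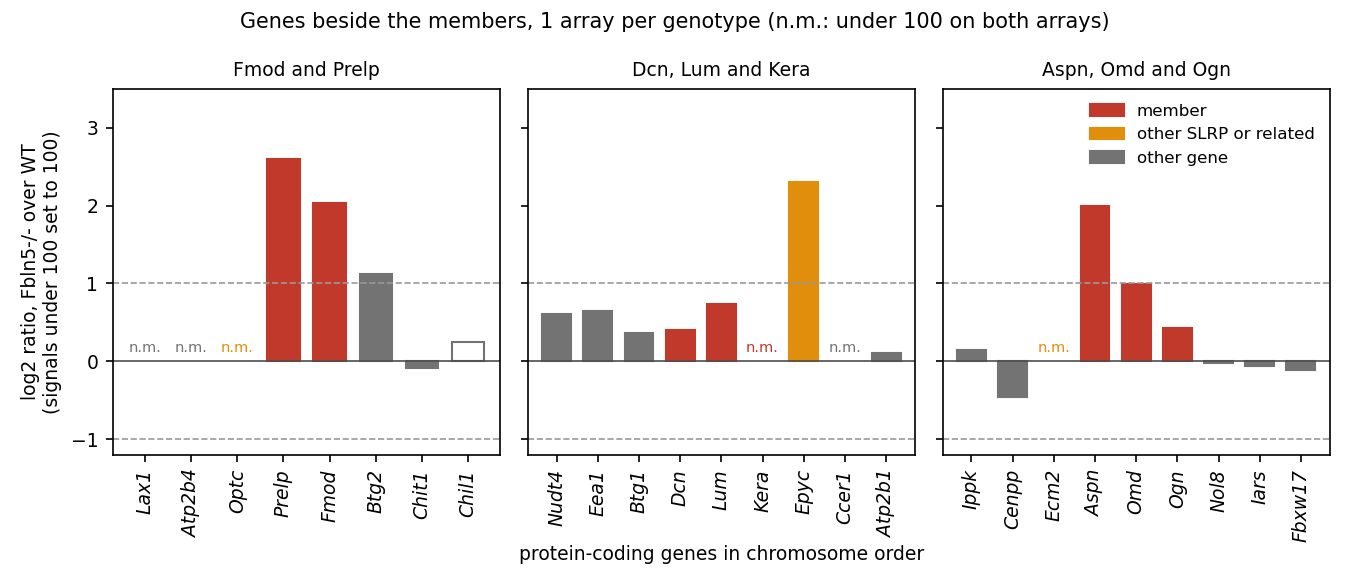
Log2 ratio (*Fbln5*-/- over WT, 1 array each, signals under 100 set to 100) of the proteoglycan genes (red), relatives (orange) and other protein-coding genes (grey) in chromosome order, with an open bar where 1 array was under 100 and n.m. where both were. *Prelp* (2.61), *Fmod* (2.04), *Epyc* (2.31) and *Aspn* (1.99) stand above the other genes beside them, among which *Btg2* (1.13) is the highest, while *Fmod* at another probe set (−0.082) would lie below *Btg2*.

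The windows from 250 bases before to 50 after the transcription start are shown for *Prelp*, *Fmod*, *Aspn* and *Omd*, which form 2 neighbouring pairs and had the largest ratios at their brightest probe sets (for *Fmod*, −0.082 at another). The sequences are those of RefSeq on GRCm38.p6, 5′ to 3′ on the strand of the gene, at chr1:133921352-133921651 (minus strand) for *Prelp*, chr1:134037004-134037303 (plus) for *Fmod*, chr13:49544193-49544492 (plus) for *Aspn* and chr13:49582212-49582511 (plus) for *Omd*. Capitals mark 3 motifs on either strand. The first is the TATA box, searched as TATAAA. The next is the CCAAT box, searched by the letters of its name. The last is CAGAC, a SMAD element, bound by factors downstream of transforming growth factor-β.
Prelp: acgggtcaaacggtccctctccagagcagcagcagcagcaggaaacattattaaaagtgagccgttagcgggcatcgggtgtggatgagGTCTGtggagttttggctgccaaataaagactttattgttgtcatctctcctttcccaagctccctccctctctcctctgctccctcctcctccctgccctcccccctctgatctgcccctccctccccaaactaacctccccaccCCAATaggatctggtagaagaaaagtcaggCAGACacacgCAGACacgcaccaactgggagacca
Fmod: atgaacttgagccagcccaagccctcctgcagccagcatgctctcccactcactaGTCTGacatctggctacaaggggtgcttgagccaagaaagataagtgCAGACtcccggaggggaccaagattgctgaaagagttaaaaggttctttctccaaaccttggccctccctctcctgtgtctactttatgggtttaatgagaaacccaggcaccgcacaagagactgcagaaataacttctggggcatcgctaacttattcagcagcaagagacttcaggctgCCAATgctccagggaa
Aspn: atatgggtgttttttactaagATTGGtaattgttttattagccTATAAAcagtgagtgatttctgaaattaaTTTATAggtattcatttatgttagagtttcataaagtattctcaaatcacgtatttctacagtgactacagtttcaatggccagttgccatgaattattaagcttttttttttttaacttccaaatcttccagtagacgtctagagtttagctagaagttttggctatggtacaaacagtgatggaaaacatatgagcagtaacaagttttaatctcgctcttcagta
Omd: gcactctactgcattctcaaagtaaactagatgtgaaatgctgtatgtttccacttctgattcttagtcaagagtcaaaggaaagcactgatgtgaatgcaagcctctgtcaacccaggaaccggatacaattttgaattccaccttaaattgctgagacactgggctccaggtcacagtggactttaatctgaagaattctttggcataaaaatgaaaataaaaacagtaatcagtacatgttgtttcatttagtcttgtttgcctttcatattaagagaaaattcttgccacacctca

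The windows of *Prelp* and *Fmod* both held CAGAC, at 3 positions for *Prelp* and 2 for *Fmod*, and both held CCAAT. The *Aspn* window held TATAAA on both strands, at −207 and −178 from the start, and CCAAT on the antisense strand, and it was poor in G and C (31.0%, against 55.3% for *Prelp* and 51.0% for *Fmod*). The *Omd* window held none of the 3 motifs. A window was found for 8 of the 10 genes, and for *Dcn* and *Lum* none was in the table. Of the 8 genes, 3 held CAGAC, 4 held CCAAT and 2 held TATAAA, and GGTCA (the core of an estrogen response element) was found in 4, GGAATG (a TEAD site) in 1 and TGANTCA (an AP-1 site) in 0. Over all 32851 windows of the same length, 49.6% held CAGAC, 37.4% CCAAT, 13.6% TATAAA, 40.5% GGTCA, 14.7% GGAATG and 7.81% TGANTCA. In the *Ogn* window the matches to TATAAA on the 2 strands overlapped each other. Such short motifs are frequent, and a match describes the letters only.

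The collagens that the proteoglycans bind were compared with them. Of 20 measured genes for fibrillar collagens and their partners, 7 were higher by 2-fold or more (6 when low signals were raised to 100) and 0 lower, and the median log2 ratio was 0.27. At their brightest probe sets the main fibril chains had smaller ratios than *Dcn* and *Lum*, with *Col1a1* at 11100 and 11964 (log2 ratio 0.11), *Col1a2* at a log2 ratio of 0.10 and *Col3a1* at 0.26. Other probe sets of these genes disagreed in part, from −0.49 to 0.28 for *Col1a2* and up to 1.24 for *Col3a1*. Of the type V chains, *Col5a2* stood above *Dcn* and *Lum* at 0.81 (1.91 at its other measured probe set). *Col5a1* (0.12) and *Col5a3* (−0.01) stood below both at their brightest probe sets. Among the higher genes, *Col14a1*, a collagen that bridges fibrils, was 3.52-fold higher (326.5 and 1150), and its second measured probe set had a log2 ratio of 1.41. *Col12a1*, of the same kind, was 2.17-fold higher (log2 ratio 0.55 at its other measured probe set). *Dpt*, which encodes the decorin-binding protein dermatopontin, had signals of 2059 and 5506 (2.67-fold). *Pcolce*, an enhancer of procollagen cleavage, was 2.44-fold higher (log2 ratio 0.84 at its other probe set), and *Thbs4*, a thrombospondin of tendon and muscle, had signals of 36.3 and 414.5, at least 4.15-fold higher. The probe sets of *Ccn4*, a matricellular gene, disagreed, with a bound of at least 2.21-fold higher at the brightest and a log2 ratio of −0.16 at the other. The seventh, *Col11a1*, was at least 1.84-fold higher.

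Enzymes that build the glycosaminoglycan chains lay on both sides of 0. Among 22 measured genes for chondroitin and dermatan sulfate synthesis, a 2-fold higher signal was seen for 1 and a lower one for 4 (0 and 4 when low signals were raised to 100), and the median log2 ratio was 0.13. The lower genes included *B3gat3* (646.5 and 229.5, 2.82-fold lower) and *B3galt6* (588.4 and 270.6, 2.17-fold lower), which add sugars of the linker between protein and chain. They also included *Chpf2* (2.69-fold lower), a chain polymerization factor, and *Chst13*, a sulfotransferase with signals of 281.2 and 91.2, at least 2.81-fold lower. *B3gat3*, *Chpf2* and *Chst13* had 1 measured probe set each, and at the second *B3galt6* probe set the log2 ratio was −0.38. The 5′ control of *Gapdh* was lower on the same array, and its part in these values was not tested. The higher gene, *Csgalnact1*, starts chondroitin chains (65.6 and 198.3, at least 1.98-fold). *Dse*, the epimerase that makes dermatan sulfate, had a log2 ratio of 0.34. Of 7 measured genes for keratan sulfate synthesis, 2 were higher and 1 was lower (1 and 1 when low signals were raised to 100), with a median of 0.18. *Chst1*, the keratan sulfate sulfotransferase, was 2.92-fold higher (113.7 and 331.8). *B3gnt7*, which extends the chain, was at least 1.18-fold higher, and *St3gal1*, a sialyltransferase, was 2.13-fold lower.

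Markers of the cells that make these proteins, and of other tissues, were read beside them. Among 17 measured fibroblast markers, a 2-fold higher signal was seen for 2 and a lower one for 2 (2 and 1 with the limit), with a median log2 ratio of 0.33, and their summed signal was 71238 in WT and 82628 in *Fbln5*-/- tissue. *Pdgfra* had a log2 ratio of 0.40 (from −0.57 to 0.72 over 3 probe sets), *Pdgfrb* of 0.69 (0.12 at its other probe set) and *Thy1* of 0.35. *Mfap4* was 2.88-fold higher while *Cd34* was 2.05-fold lower, and the list holds 4 genes of the collagen list, *Dpt* among them. Smooth muscle markers summed to 41192 and 44289, with 1 of 10 higher and a median of 0.11. Adipocyte markers differed most, with all 9 measured at least 2-fold higher (8 with the limit), summed signals of 4432 and 21777, and a median of 2.57. *Adipoq*, the adiponectin gene, had signals of 104.1 and 1131. Skeletal muscle markers summed to 6772 and 9772, with 3 of 11 higher (2 with the limit). Leukocyte markers summed to 11555 and 16347, with 3 of 11 higher (2 with the limit), 1 lower and a median of 0.46. Within these sums *S100a8* had 1198 and 4372, and the lower gene was *Itgam* (433.8 and 76.4). Endothelial markers summed to 5102 and 5684, with 0 of 10 at least 2-fold different. Of 11 epithelial markers, 1 was higher, with sums of 124427 and 142056. Of 7 Schwann and perineurial markers, 1 was higher (0 with the limit), with a median of 0.58 (0.28 with the limit). Their sums of 14716 and 15821 were mostly *Slc2a1* (10086 and 9878). The part of fat, muscle or leukocytes in the proteoglycan values was not tested.

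Several members are known from tendon, cartilage or bone. Of 9 tendon markers, 4 were measured, with summed signals of 4382 and 6790. *Cilp* (980.8 and 3872) and *Thbs4* were higher and *Kcnk2* was lower, while the defining tendon genes *Tnmd* (17.3 and 25.6), *Scx* (46.5 and 49.8) and *Mkx* (23.8 and 59.1) were under 100 on both arrays. Of 14 cartilage and bone markers in the annotation used, 12 were under 100 on both arrays, among them *Col2a1* (33.3 and 8.33) and *Ibsp* (53.8 and 21.7). The 2 measured were *Sox9* (88.1 and 109.8) and *Alpl* (1645 and 770.7), with sums of 1733 and 880.5.

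**Figure D4:**
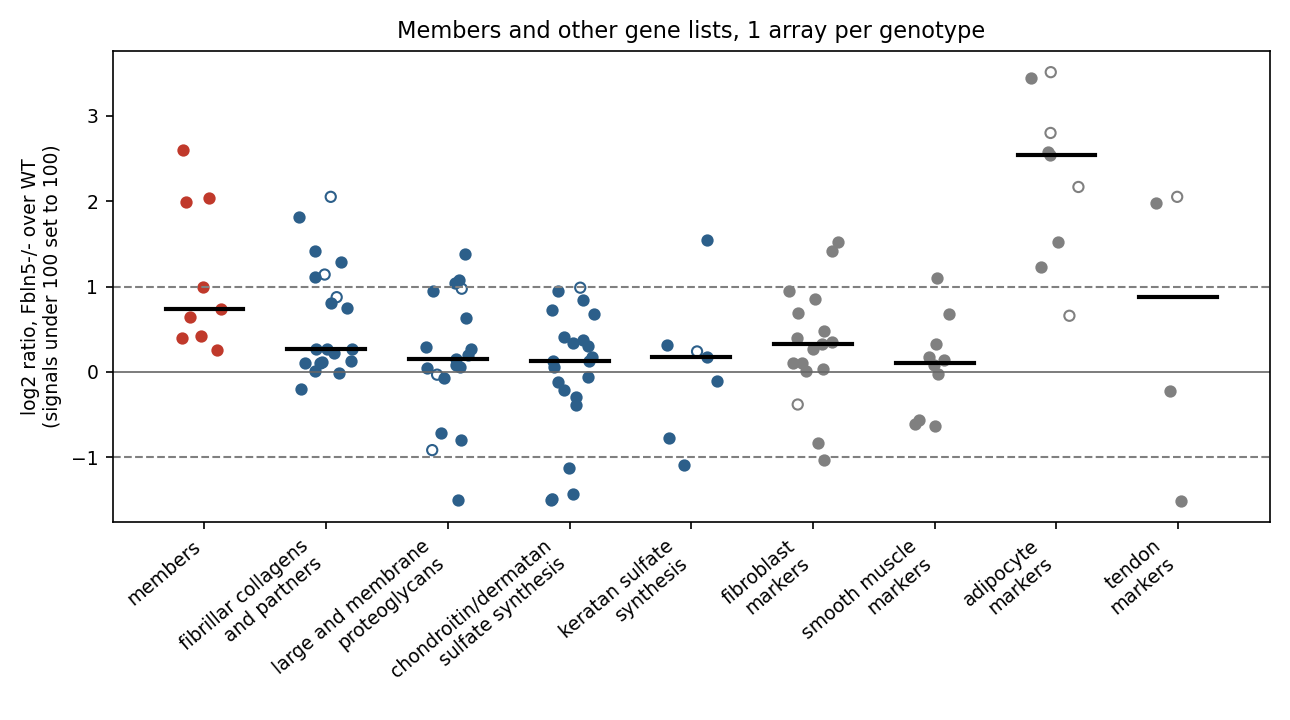
Log2 ratio (*Fbln5*-/- over WT, 1 array each, signals under 100 set to 100) of the measured genes of each list, filled circles where both signals reached 100, open circles for bounds, black bars for medians and dashed lines at 2-fold. The proteoglycan genes (median 0.74) all lie above 0 at their brightest probe sets (*Fmod* at −0.082 at another), chain synthesis genes (0.13 and 0.18) spread to both sides, and adipocyte markers (2.54) lie highest.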

How the data were processed

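Total RNA of estradiol-treated vagina was hybridized to 1 Affymetrix array per genotype. The authors deposited MAS5 signal intensity values on a linear scale, and the submitters' processing notes name MAS5 without a version. The methods kept probe sets scored present or marginal, and such calls were not used here.

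A WT signal of 0 was set to 0.1, and both arrays were scaled to the geometric mean of their medians (factors 0.972 and 1.03), after the 50th percentile scaling of the methods. Probe sets with at least 100 on 1 array were kept (21508, without 64 control probe sets). In the platform annotation 34958 probe sets had a single gene symbol and 932 had several, while 9211 were not listed. Symbols were updated by gene ID. No proteoglycan probe set was annotated to several genes. Each gene took the values of its brightest probe set (highest mean over both arrays). With 1 array per genotype no test was made, and a ratio of 2-fold was counted. Where 1 array was under 100, folds are bounds against 100. The genes and lists were chosen with earlier results of these data known. The genes named were all 10 proteoglycan genes and, of each list, those at least 2-fold different (up to 6), plus genes beside them, and some within 2-fold that were chosen after their values were seen. Alternatives were other scalings, filters, low-signal rules, probe set rules and folds of 1.5 and 3. The steps were tested on simulated data with low noise. Changes were planted only in brighter genes with 1 probe set, so dim genes and genes with several probe sets were not covered. Software was Python 3.11.15 with numpy 2.4.6, pandas 2.3.3 and matplotlib 3.10.9. The study's qPCR, zymography and human measurements were not analysed here.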

Additional observations from a re-analysis of the deposited data

How the results depend on the processing

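Of the alternatives tried, none turned the direction of a proteoglycan gene except for *Fmod*, whose log2 ratio was −0.082 without _x_at, _s_at and _a_at probe sets and −0.082 at the probe set with the highest WT signal, in place of 2.04. *Prelp* ranged from 1.69 to 2.61 and *Aspn* from 1.77 to 2.13, past 2-fold in all 13 settings that gave a ratio. *Omd* ranged from 0.84 to 1.005 and passed 2-fold with quantile normalization alone. The median log2 ratio ranged from 0.63 to 0.87 and was above that of all genes in 13 of 13 settings, by 0.48 to 0.74, while that of all genes itself ranged from 0.05 to 0.16. The settings share the same 2 arrays, and several filters and low-signal rules left the median unchanged, so they are not repeats of the comparison. The count of proteoglycan genes was 6 at 1.5-fold, against 20.0% of all genes. That of probe sets at 2-fold was 3 when both arrays had to reach 100, where fewer probe sets are counted (4.45% of named probe sets). No paired analysis was possible because each genotype had 1 array. Signals near 100, as for *Omd*, *Podn*, *Aspn* and *Fmod* on the WT array, limit what their ratios can show.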

Other observations

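Other proteoglycans and the molecules that small leucine-rich proteoglycans bind gave a mixed picture. Of 19 measured genes for large and membrane proteoglycans, a 2-fold higher signal in *Fbln5*-/- tissue was seen for 4 and a lower one for 2 (3 and 1 when low signals were raised to 100), and the median log2 ratio was 0.15. *Vcan*, which encodes versican, the large hyaluronan-binding proteoglycan, stood at 716.2 in WT and 1506 in *Fbln5*-/- tissue (2.10-fold), and its second measured probe set had a log2 ratio of 0.76. The glypicans, which hold heparan sulfate at the cell surface, were split. *Gpc3* was 2.61-fold higher (334.6 and 875.0), *Gpc6* had a bound of at least 1.97-fold higher and a log2 ratio of 0.69 at its other probe set, and *Gpc1* was 2.83-fold lower (1464 and 517.3). *Spock2* had signals of 105.3 and 216.8, and *Spock1* had signals of 188.6 and 82.9. The basement membrane proteoglycan *Hspg2* had a log2 ratio of −0.72.

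Of 17 measured genes for receptors and growth factors that these proteins are known to bind, a 2-fold higher signal was seen for 2 and a lower one for 4, with a median of 0.20. *Tgfb1*, a ligand held by decorin and biglycan, had signals of 2092 and 560.0 (3.74-fold lower), *Tgfb3* was 2.22-fold lower and *Tgfb2* had log2 ratios from −0.69 to 0.04 over 4 probe sets. *Ccn2*, the connective tissue growth factor gene, was 6.14-fold higher (429.3 and 2635). *Cd14*, a co-receptor of Toll-like receptors, was 2.29-fold higher, and *Tlr2* and *Tlr4* both had log2 ratios of 0.48 (0.03 at the other *Tlr4* probe set). *C1qa*, a complement gene whose protein binds several members, had signals of 1847 and 184.3 (log2 ratio −3.33), and *Lrp1* was 2.05-fold lower. *Tgfb1*, *Tgfb3*, *C1qa* and *Lrp1* had 1 measured probe set each, and the part of the lower 5′ control signal of *Gapdh* in these values was not tested.

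Of 10 measured proteases reported to cleave these proteoglycans, a 2-fold higher signal was seen for 3 and a lower one for 1, and the median was 0.37 (0.20 when low signals were raised to 100). *Adamts5*, an aggrecanase, was 2.53-fold higher (210.1 and 531.4), with log2 ratios from 0.46 to 1.34 over 3 probe sets, and *Adamts1* was 2.02-fold lower. *Tll1*, a relative of the procollagen C-proteinase, was at least 2.14-fold higher, and *Mmp3* was at least 2.03-fold higher.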
